A study of Mus musculus with 6 samples.

Results

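Platelet-derived growth factor (PDGF) signalling was followed through its 6 genes, the ligand genes Pdgfa, Pdgfb, Pdgfc and Pdgfd and the receptor genes Pdgfra and Pdgfrb. They were chosen by family, though with earlier results of these data known, and are 6 of the 19057 genes to which the platform annotation gives a symbol. All 11 probes annotated to them were taken. The tested hearts came from male wild-type C57Bl6 mice 72 h (3 days) after reperfusion that followed 90 min in which the left anterior descending coronary artery was occluded (ischemia-reperfusion, IR). These mice were anaesthetised with ketamine and sodium pentobarbital and their chests were opened. The other hearts came from uninjured male mice of the same strain, which had no operation according to the labels, while the signal table heads their columns as sham. Each group has 3 Illumina bead arrays, on which total RNA from the heart was hybridised, 1 array per sample. Infarcted and remote muscle were not separated as far as the labels say, and the age of the mice is not given in the sources used here. Nothing in the labels says that each array had its own mouse, and the p-values reflect only how far these samples spread, part of which may be technical. In the signal table arrays are known by number, 106, 107 and 886 in the IR group and 109, 110 and 904 in the uninjured group.

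PDGFs are secreted dimers that bind the receptor tyrosine kinases PDGFR-alpha and PDGFR-beta, encoded by Pdgfra and Pdgfrb. PDGF-A and PDGF-B are released in active form, whereas PDGF-C and PDGF-D carry a CUB domain that a protease must remove before they can bind. In the heart PDGFR-alpha marks fibroblasts, PDGFR-beta marks pericytes and other mural cells as well as some fibroblasts, and PDGF-B from endothelium recruits pericytes to vessels.

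The promoter windows of 3 members are shown because Pdgfc and Pdgfra were the ligand and the receptor with the largest increases, and Pdgfa is a ligand whose call turned on the settings. The call of Pdgfb turned on them too, but its window was not used. The windows come from RefSeq (GRCm38.p6) and span 250 bases before to 50 bases after the annotated start site, 5′ to 3′ on the gene's strand, with capitals from the start site on. They lie at chr3:81036166-81036465 (Pdgfc, + strand), chr5:75152001-75152300 (Pdgfra, + strand) and chr5:138994895-138995194 (Pdgfa, - strand).
Pdgfc: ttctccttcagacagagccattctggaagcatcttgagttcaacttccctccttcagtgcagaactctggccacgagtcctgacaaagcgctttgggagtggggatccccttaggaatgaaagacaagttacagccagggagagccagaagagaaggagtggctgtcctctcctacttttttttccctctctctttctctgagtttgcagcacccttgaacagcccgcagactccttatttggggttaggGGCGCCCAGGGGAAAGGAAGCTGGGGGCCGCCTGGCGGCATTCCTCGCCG
Pdgfra: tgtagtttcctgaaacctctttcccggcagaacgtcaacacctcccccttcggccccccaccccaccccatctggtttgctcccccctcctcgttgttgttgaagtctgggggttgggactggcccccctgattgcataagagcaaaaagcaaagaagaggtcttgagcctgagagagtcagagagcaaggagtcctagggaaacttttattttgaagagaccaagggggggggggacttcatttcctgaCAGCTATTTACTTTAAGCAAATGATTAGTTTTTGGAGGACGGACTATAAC
Pdgfa: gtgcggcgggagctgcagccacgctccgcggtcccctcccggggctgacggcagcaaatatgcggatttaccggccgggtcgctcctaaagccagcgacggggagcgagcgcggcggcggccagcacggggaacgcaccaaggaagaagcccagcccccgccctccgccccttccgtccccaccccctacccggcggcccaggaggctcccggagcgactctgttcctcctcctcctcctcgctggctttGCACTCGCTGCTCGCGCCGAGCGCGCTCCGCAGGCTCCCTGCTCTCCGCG

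The Pdgfa window was the richest in G and C, at 73.3%, against 55% for Pdgfc, 51% for Pdgfra and a median of 52.7% over all 32851 windows of the same length. Both strands were searched for the AP-1 motif TGANTCA (in 7.81% of all windows), the GC box GGGCGG (35.7%), the Egr motif GCGNGGGCG (5.55%), the CCAAT box CCAAT (37.4%), the TATA box TATAAA (13.6%) and the STAT motif TTCNNNGAA (8.3%). An Egr match and a GC box can overlap. The Pdgfa window held 2 GC boxes, starting at positions -93 and -86 from the start site, and no other match. These letters were not found in the Pdgfc and Pdgfra windows. A second Pdgfa window (chr5:138994232-138994531, - strand) held 1 GC box at -60, and the Pdgfd window (chr9:6168236-6168535, + strand) 1 TATA box at -160. Pdgfb and Pdgfrb windows were not used.

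Between 39.8% and 42.5% of the 45281 probes were detected (detection p-value under 0.05) on the IR arrays, and between 35.1% and 39.4% on the uninjured arrays. Raw intensity had its 75th percentile at 135 to 138 on IR arrays and at 109 to 111 on uninjured arrays. Across the 18197 kept probes, each of them no independent replicate, Pearson correlations ran from 0.995 to 0.996 among IR arrays, 0.988 to 0.990 among uninjured arrays and 0.838 to 0.853 between the groups. A probe was kept where it was detected on at least 3 of the 6 arrays.

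Of the 11 member probes, 6 were kept, at least 1 for each member but Pdgfd. Transcripts of the receptors Pdgfra and Pdgfrb and of the ligand Pdgfc were higher after IR, those of Pdgfa and Pdgfb did not pass the test after normalization, and Pdgfd was not detected on any array. In the fit over all kept probes (limma, Benjamini-Hochberg adjusted p under 0.05) 3 of the 6 kept member probes rose and 0 fell. Of all kept probes 69.6% were called in either direction, 36.5% higher and 33.1% lower, and at unadjusted p under 0.05 the Pdgfa probe also passed. With so many probes called, 3 of 6 is not read as particular to the family. Among the 3, the Pdgfc probe passed the detection filter through the IR arrays. The arrays held RNA of the whole tissue, so more cells of a type and more RNA per cell cannot be told apart.

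**Figure D1:**
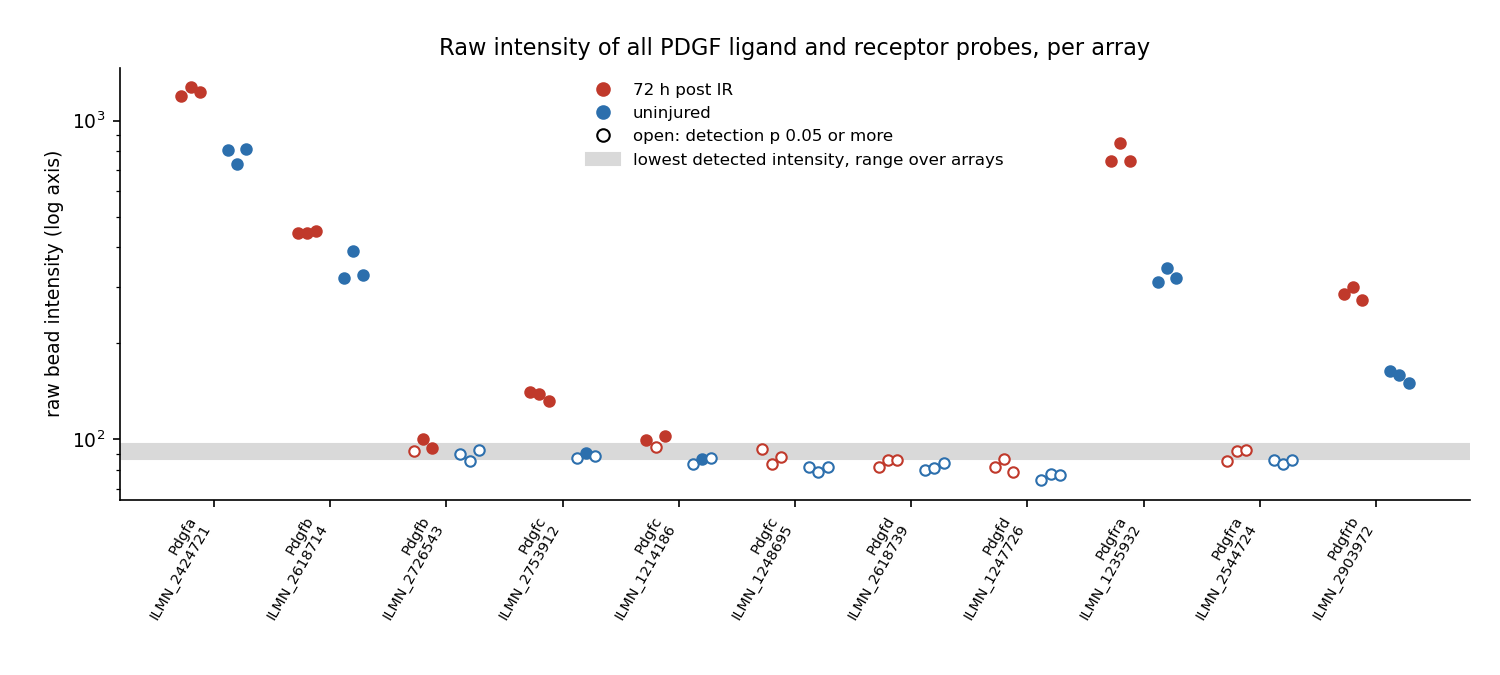
Raw bead intensity (log axis) of all 11 member probes, with a point per array, IR arrays in red to the left of uninjured arrays in blue. Filled points were detected, and the grey band spans the lowest detected intensity of the 6 arrays (86.9 to 96.8). In 8 of the 11 probes, undetected ones of Pdgfc and Pdgfd among them, every IR array lay above every uninjured array before normalization, as in 51.3% of all 45281 probes, so nothing about the members is read from that count.

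Pdgfc encodes a ligand that signals mainly through PDGFR-alpha. Its brightest probe (ILMN_2753912) had raw intensities of 140, 139 and 132 on IR arrays 106, 107 and 886, against 87.4, 90.8 and 88.6 on uninjured arrays 109, 110 and 904. It was detected on all 3 IR arrays but on 1 of 3 uninjured arrays, array 110, so its uninjured level lay at the edge of background. The probe passed the detection filter through the IR arrays, so it could hardly be called lower. With no filter its call held (limma, adjusted p = 0.000274). On the normalised log2 scale the values were 5.88, 5.80 and 5.71 on the IR arrays, against 4.58, 4.94 and 4.60 on the uninjured arrays. The groups did not overlap, with IR higher, as in 38.3% of all kept probes. Overlap was absent in 5 of the 6 kept member probes, with IR higher in 4 and lower in 1, and in 73.1% of all kept probes, with IR lower in 34.8%. The log2 fold change was 1.09 ± 0.11 (SE, n = 3 per group; limma, adjusted p = 8.56e-05) on that scale. With 2 of the 3 uninjured arrays not above background, its exact size is not fixed by these data. In a fit in which all undetected values were raised to the lowest detected value of their array, an alternative chosen after seeing the data, it was 0.92 (limma, adjusted p = 1.56e-05). Its size depended on the background correction: it was 0.41 without one (limma, adjusted p = 4.2e-05), 0.40 in the authors' processed values (limma, adjusted p = 4.53e-05) and 0.57 with an offset of 50 (limma, adjusted p = 3.14e-05). The second Pdgfc probe (ILMN_1214186) was dimmer and overlapped between groups, with log2 values of 4.84, 4.57 and 4.91 on IR arrays 106, 107 and 886, against 4.43, 4.70 and 4.54 on uninjured arrays 109, 110 and 904. It was detected on 2 of 3 IR arrays and 1 of 3 uninjured arrays, and its log2 fold change of 0.21 ± 0.12 did not pass (limma, adjusted p = 0.140). By the mean of both probes Pdgfc rose by 0.65 (limma, adjusted p = 0.000614). The second probe gave 0.29 (limma, adjusted p = 0.0453) without IR array 107 and -8.04e-05 (limma, adjusted p = 0.999) with undetected values raised. The third Pdgfc probe (ILMN_1248695) was detected on 0 of 6 arrays, with raw means of 88.4 in IR hearts and 81.1 in uninjured hearts.

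Pdgfa encodes the ligand chain whose homodimer binds PDGFR-alpha. Raw intensities of its probe (ILMN_2424721) were 1190, 1273 and 1227 on IR arrays 106, 107 and 886, against 810, 732 and 817 on uninjured arrays 109, 110 and 904. After normalization the log2 values were 9.94, 10.03 and 9.95 in IR hearts, against 9.85, 9.59 and 9.79 in uninjured hearts. Every IR array still lay above every uninjured array, but the gap had shrunk: the raw ratio of means was 1.56, and the normalised log2 fold change was 0.23 ± 0.09, a fold of 1.17 with a 95% interval of 1.01 to 1.36 (limma, adjusted p = 0.0519). When p-values were adjusted over 10204 genes in place of 18197 probes the same difference passed (limma, adjusted p = 0.0438). Over 19 alternatives the adjusted p ranged from 0.000157 to 0.949, so Pdgfa lies at the threshold and its call depends on the setting.

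Pdgfb encodes the ligand chain of endothelium and platelets that binds both receptors. Its bright probe (ILMN_2618714) had raw intensities of 443, 444 and 450 on IR arrays 106, 107 and 886, against 320, 390 and 328 on uninjured arrays 109, 110 and 904, so raw signal was higher after IR. On the normalised scale the order turned, with log2 values of 8.28, 8.25 and 8.29 in IR hearts and 8.39, 8.63 and 8.36 in uninjured hearts. Uninjured array 110 was the highest and the IR arrays lay within 0.04 of each other. The log2 fold change of -0.19 ± 0.09 did not pass (limma, adjusted p = 0.100), with a fold of 0.878 and a 95% interval of 0.757 to 1.02. All-probe median scaling gave 0.41 (limma, adjusted p = 0.0207) and kept-probe median scaling -0.25 (limma, adjusted p = 0.0405), so no direction is given for Pdgfb. Its second probe (ILMN_2726543) was detected on 2 of 3 IR arrays and on 0 of 3 uninjured arrays and was not kept. That probe had log2 means of 4.65 ± 0.11 in IR hearts and 4.72 ± 0.12 in uninjured hearts (SD, n = 3 each), and the groups overlapped.

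Pdgfd encodes the ligand that signals mainly through PDGFR-beta. Both of its probes had detection p-values of 0.268 or more on all 6 arrays. Raw means for ILMN_2618739 were 84.9 ± 2.3 in IR hearts and 82.1 ± 2.0 in uninjured hearts (SD, n = 3 each), and for ILMN_1247726 82.7 ± 3.8 in IR hearts and 76.7 ± 1.7 in uninjured hearts. Both lay below the lowest detected intensity of their arrays, so Pdgfd was not detectable with these probes, which gives no measure of a change.

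Pdgfra encodes the receptor that marks cardiac fibroblasts. Its bright probe (ILMN_1235932) had raw intensities of 745, 848 and 748 on IR arrays 106, 107 and 886, against 311, 346 and 322 on uninjured arrays 109, 110 and 904, each detected. The normalised log2 values were 9.16, 9.37 and 9.15 in IR hearts, against 8.34, 8.43 and 8.33 in uninjured hearts. The groups were far apart relative to their spread, and array 107 was the highest. The log2 fold change was 0.86 ± 0.09 (SE, n = 3 per group; limma, adjusted p = 6.43e-05), a 1.82-fold increase with a 95% interval of 1.58 to 2.09. Of all 10204 genes with a kept probe, 17.8% had a higher log2 fold change. The call held in all 19 alternatives, with values from 0.74 in the authors' processed values to 1.43 under all-probe median scaling. The other Pdgfra probe (ILMN_2544724) was detected on 0 of 6 arrays. It is 1 of 3 member probes whose annotated transcript is not among the RefSeq transcripts of the members, the others being ILMN_1248695 of Pdgfc and ILMN_1247726 of Pdgfd, and none of the 3 was detected on any array.

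Pdgfrb encodes the receptor of mural cells. Its only probe (ILMN_2903972) had raw intensities of 285, 300 and 274 on IR arrays 106, 107 and 886, against 163, 160 and 151 on uninjured arrays 109, 110 and 904, each detected. Normalised log2 values were 7.49, 7.54 and 7.38 in IR hearts, against 7.03, 6.91 and 6.78 in uninjured hearts. The groups did not overlap and the lowest IR array lay above the highest uninjured array. The log2 fold change was 0.56 ± 0.09 (limma, adjusted p = 0.000955), a 1.48-fold increase with a 95% interval of 1.27 to 1.71, and 27.0% of genes had a higher one. The call held in all 19 alternatives, from 0.37 in the authors' processed values to 1.21 under all-probe median scaling.

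**Figure D2:**
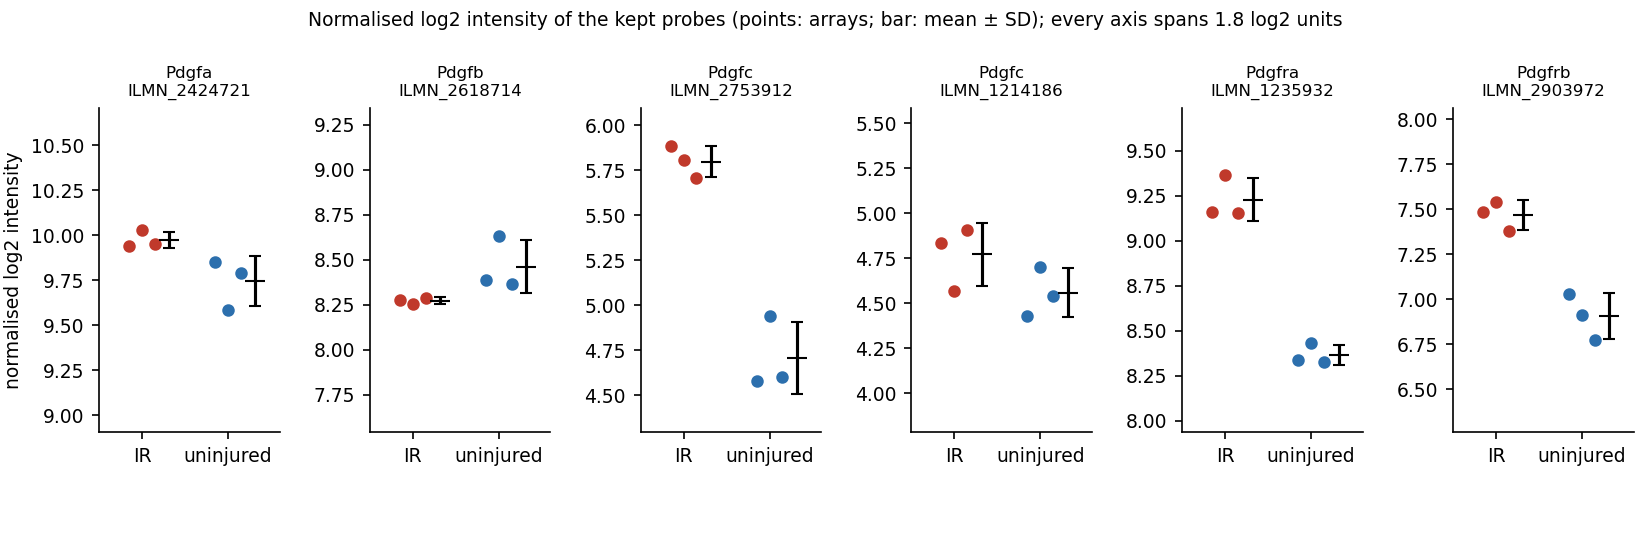
Normalised log2 intensity of the 6 kept member probes, with a point per array and the mean ± SD beside each group, IR arrays left of uninjured arrays. Each vertical axis spans the same number of log2 units. The groups are apart for Pdgfra, Pdgfrb and the first Pdgfc probe, close for Pdgfa and Pdgfb, and overlap for the second Pdgfc probe.

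Whether members changed unequally was asked with differences between log2 values on the same array, in 4 pairs. The Pdgfra minus Pdgfrb difference was 0.30 ± 0.09 greater in IR than in uninjured hearts (SE, n = 3 per group), that is, Pdgfra increased more. Among the ligands, with Pdgfc by its brightest probe, the Pdgfc minus Pdgfb difference was 1.28 ± 0.06 greater in IR hearts. The Pdgfc minus Pdgfa difference was 0.86 ± 0.21 greater and the Pdgfa minus Pdgfb difference 0.42 ± 0.17 greater. In each pair the 3 IR arrays lay above the 3 uninjured arrays. The two-sided exact permutation test gave p = 0.1 for each pair, or 0.1 after Benjamini-Hochberg adjustment over the 4, which is the smallest value that 3 arrays against 3 can give, so none could pass. The direction was the same in all alternatives in which a pair had a value. Both median scalings give the same differences, since a constant per array cancels, and are 1 check rather than a pair of them. However, the Pdgfc pairs shrank without background correction, to 0.57 against Pdgfb and 0.20 against Pdgfa, and in the second case the groups then overlapped (exact permutation p = 0.3 after adjustment). By the mean of both probes the Pdgfc pairs were 0.84 against Pdgfb and 0.42 against Pdgfa. The exact permutation p after adjustment was 0.133 for the first of these and 0.2 for the second. The second Pdgfc probe alone changed by 0.21 and the Pdgfa probe by 0.23, so unequal change of Pdgfc and Pdgfa rests on the brightest Pdgfc probe. The Pdgfra minus Pdgfrb difference ranged from 0.21 to 0.37 and the Pdgfa minus Pdgfb difference from 0.25 to 0.51.

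**Figure D3:**
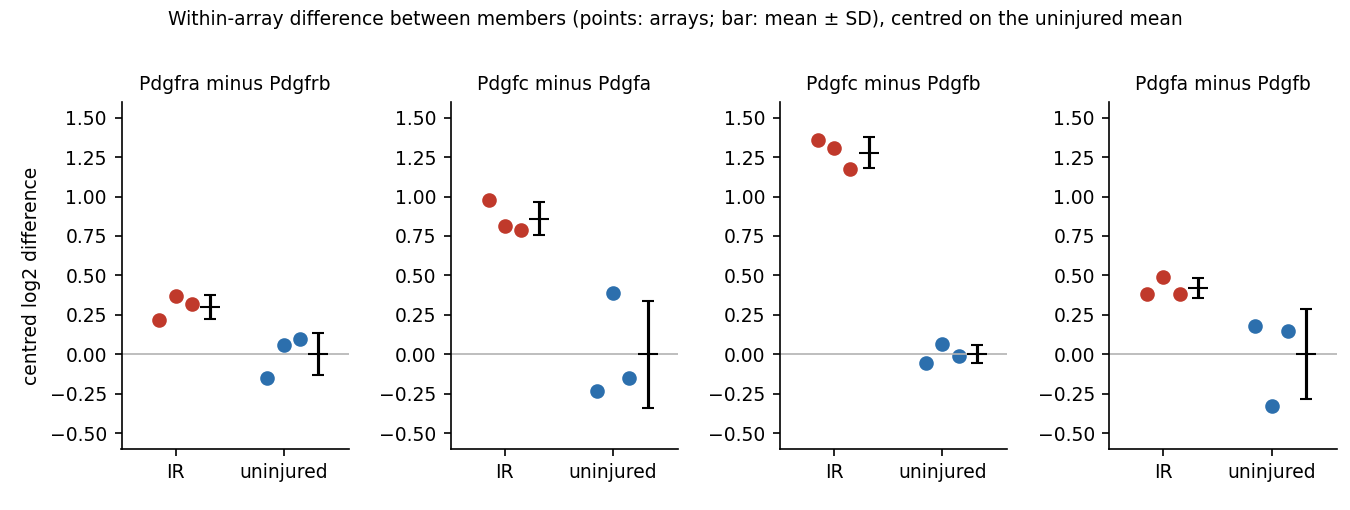
Within-array log2 difference between members, centred on the uninjured mean of each pair, with a point per array and the mean ± SD, IR arrays left of uninjured arrays. Pdgfc is given by its brightest probe. Pdgfc minus Pdgfb shows the widest separation, at 1.28, and Pdgfra minus Pdgfrb the narrowest, at 0.30.

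How the arrays were brought to a common scale mattered for the family. Over all genes the log2 fold change had a median of 0.05 after quantile normalization, 0.52 under all-probe median scaling (arrays set to 1 median over all probes) and -0.14 under kept-probe median scaling (the same over the kept probes), and the share of called probes that rose was 52.5%, 77.5% and 38.8% in these settings. Relative to that median, Pdgfra stood at 0.82 after quantile normalization and at 0.91 under both median scalings, Pdgfrb at 0.52 and 0.69, and Pdgfc at 1.05 and 0.88. Pdgfa stood at 0.18 and 0.15 and Pdgfb at -0.23 and -0.11 on the same footing. The first 3, Pdgfc by its brightest probe, thus lay above the typical gene in each scaling, and Pdgfa and Pdgfb lay near it. After quantile normalization 13.7% of genes had a higher log2 fold change than Pdgfc, 17.8% than Pdgfra and 27.0% than Pdgfrb. The second Pdgfc probe, at 0.21, was exceeded by 41.8% of genes. Under kept-probe median scaling that probe was called lower (-0.35; limma, adjusted p = 0.0358).

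**Figure D4:**
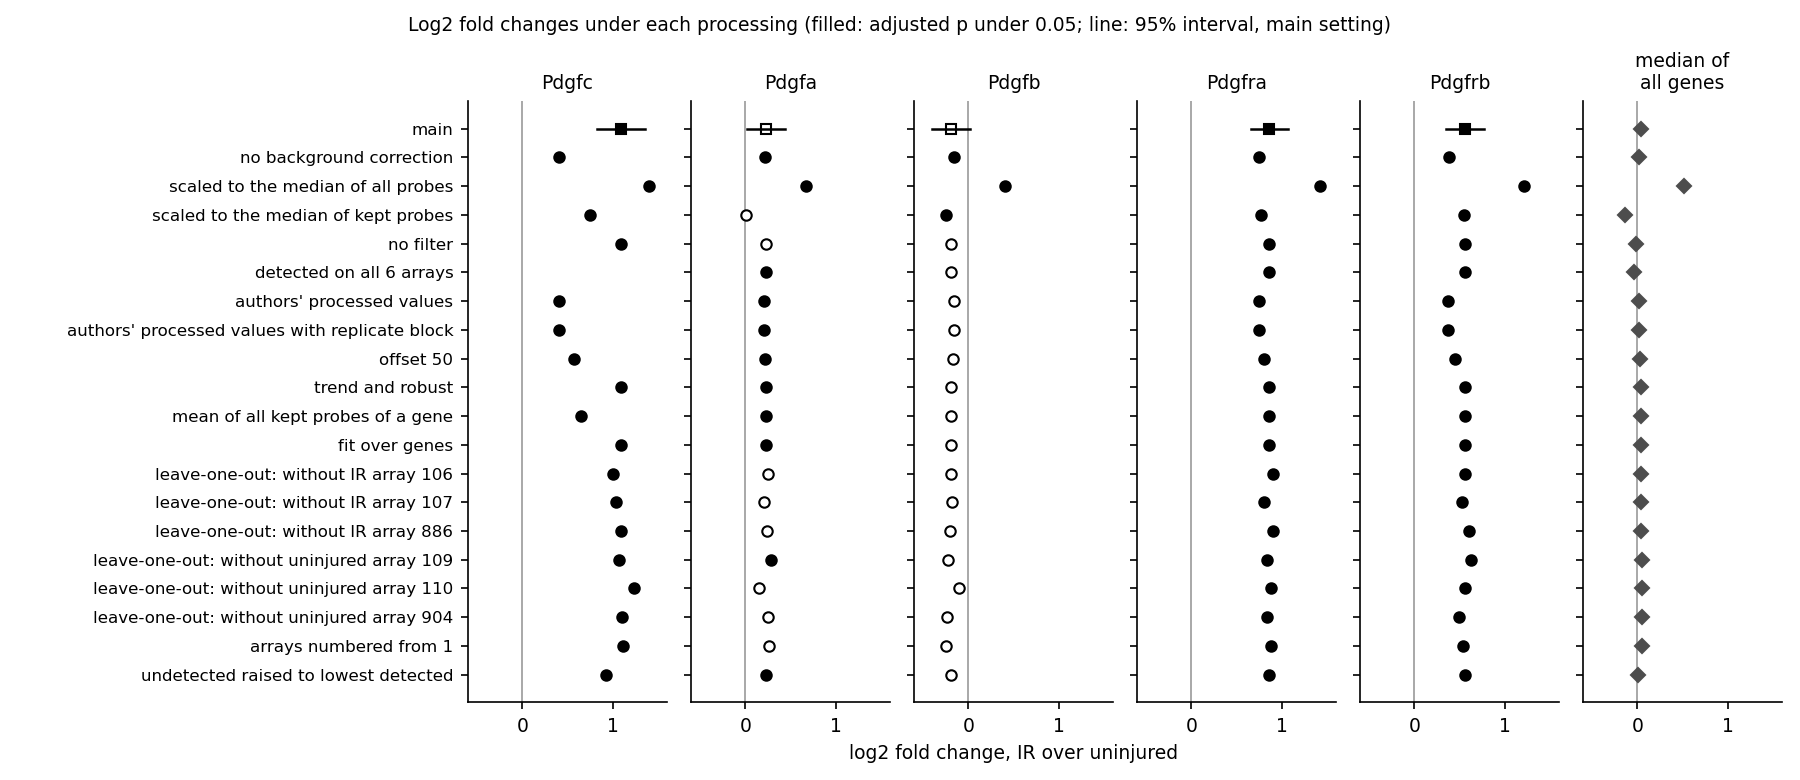
Log2 fold change (IR over uninjured) of the 5 measured members and the median of all genes under each processing setting, in rows. Filled symbols passed at an adjusted p under 0.05, and the line in the top row (main, quantile normalization) is the 95% interval. The row for arrays numbered from 1 holds arrays 106 and 107 against arrays 109 and 110 only, and the last row the fit with undetected values raised. Pdgfc, Pdgfra and Pdgfrb are filled in every row in which they have a value, whereas Pdgfa is open in some rows and Pdgfb lies right of 0 under all-probe median scaling.

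The genes with array profiles most like those of the called members, after each profile was centred on its own mean, were found by the root mean square difference over the 6 arrays. For Pdgfc these were Plpp5 (0.034 log2 units), Gngt2 (0.042) and Enah (0.048), an actin regulator. Pdgfra was nearest to Mfsd5 (0.034), Rras (0.039), a Ras-related GTPase, and the MHC gene H2-Q5 (0.042). Nearest to Pdgfrb were Manbal, Tpmt, which methylates thiopurines, and Commd6, each at 0.041. Likeness over 6 arrays in 2 groups is a description only, since many genes share a group difference of about the same size.

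Measured genes of the list for PDGF binding, activation and co-receptors mostly rose. Of 10 listed, 8 were measured, 6 rose and 1 fell, with a median log2 fold change of 1.17 against 0.05 over all genes, of which 73% were called, 38.9% higher and 34.1% lower. Plau, the urokinase that can activate PDGF-D, rose by 2.31 ± 0.17 (limma, adjusted p = 1.09e-05), detected on 2 of 3 uninjured arrays. Sparc, a matrix protein that binds PDGF-B, rose by 2.20 ± 0.15 (limma, adjusted p = 7.75e-06). Plat, the tissue plasminogen activator that cleaves PDGF-C, rose by 0.90, the co-receptor gene Lrp1 by 1.43 and Furin, a proprotein convertase that processes PDGF chains, by 0.35. Furin did not pass under kept-probe median scaling (0.11; limma, adjusted p = 0.221). Nrp1, a co-receptor gene, stood at -0.02 and did not pass, but was called higher under all-probe median scaling (0.39; limma, adjusted p = 0.0304) and lower under kept-probe median scaling (-0.27; limma, adjusted p = 0.0465), so it has no direction here. The largest rise in the list was that of Timp1 (6.94 ± 0.16), an inhibitor of matrix metalloproteinases, and the only fall that of Htra1 (-0.53 ± 0.10), a secreted serine protease, neither of them known for activating PDGFs. Both genes are part of the counts and the median above. The Htra1 value was 0.03 (limma, adjusted p = 0.860) under all-probe median scaling.

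The genes that carry the signal inside the cell moved both ways, in about the shares of all genes. Of 40 listed transducers 26 were measured, 10 rose and 9 fell, at a median of -0.02. Over all genes 38.9% were called higher and 34.1% lower, so these counts are not read as particular to the transducers. The increases were led by the NHERF1 scaffold gene Slc9a3r1 (2.17 ± 0.08) and the kinase gene Prkcd (1.95 ± 0.13), and the adaptor gene Shc1 (1.05) and Nras (1.10) rose too. The decreases were led by Slc9a3r2 (-1.41 ± 0.08), the NHERF2 scaffold, and Pik3r1 (-1.25 ± 0.11), the regulatory subunit of phosphoinositide 3-kinase. Stat5a (-0.98), the adaptor gene Gab1 (-0.82), Prkca (-0.65), the phosphatase gene Ptpn11 (-0.50), Pik3r2 (-0.50) and the catalytic subunit gene Pik3ca (-0.42) also fell. Akt2 was detected on 0 of 3 IR arrays and 3 of 3 uninjured arrays and was at least 1.65-fold lower after IR. Jak1 (-0.04), Stat3 (-0.01) and Map2k2 (-0.01) did not pass, although each rose under all-probe median scaling (by 0.62, 0.43 and 0.39 in the same order). Under all-probe median scaling 16 transducers rose and 5 fell, and Prkca (-0.03), Ptpn11 (-0.21), Pik3r2 (-0.02) and Pik3ca (0.24) did not pass. In that setting 57.4% of all kept probes rose and 16.6% fell. Under kept-probe median scaling 9 transducers rose and 12 fell, beside 28.6% and 45.1% of all kept probes.

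Of 14 genes that restrain PDGF receptors 9 were measured, 6 rose and 1 fell, at a median of 0.33, beside 38.9% higher and 34.1% lower over all genes. Socs3, a suppressor of cytokine signalling, rose by 2.74 ± 0.11 and Ptpn1, a phosphatase that acts on these receptors, by 1.86 ± 0.23, with Ptpn1 detected on 2 of 3 uninjured arrays. Dusp1, a MAP kinase phosphatase, fell by 1.41 ± 0.15, while Dusp6 rose by 1.02. Of 17 early genes that PDGF induces in cultured fibroblasts 13 were measured, 11 rose and 1 fell, at a median of 1.23. With detection on all 6 arrays required, 9 rose and 1 fell. In the main fit Ccl2 and Has2 needed the IR arrays to pass the detection filter, so they could hardly be called lower. Ccl7 (5.26 ± 0.11) and Ccl2 (4.63 ± 0.10), both monocyte attractants, led, with Ccl2 detected on 1 of 3 uninjured arrays, followed by the matricellular gene Ccn2 (2.63 ± 0.15). Fos (1.23) and Junb (1.66) rose, and Srf, the serum response factor, fell by 0.69 ± 0.07, but stood at -0.18 (limma, adjusted p = 0.192) under all-probe median scaling. Many stimuli other than PDGF induce these genes. Of the class III receptor kinase relatives and their ligands, 5 of 7 were measured. Csf1r (1.13 ± 0.10), the receptor of macrophages, and Kit (0.80 ± 0.10) rose, and Csf1 (0.14), Il34 (-0.12) and Kitl (-0.78) did not pass. Under kept-probe median scaling Il34 (-0.56) and Kitl (-1.15) were called lower, and under all-probe median scaling Csf1 (0.80) was called higher.

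**Figure D5:**
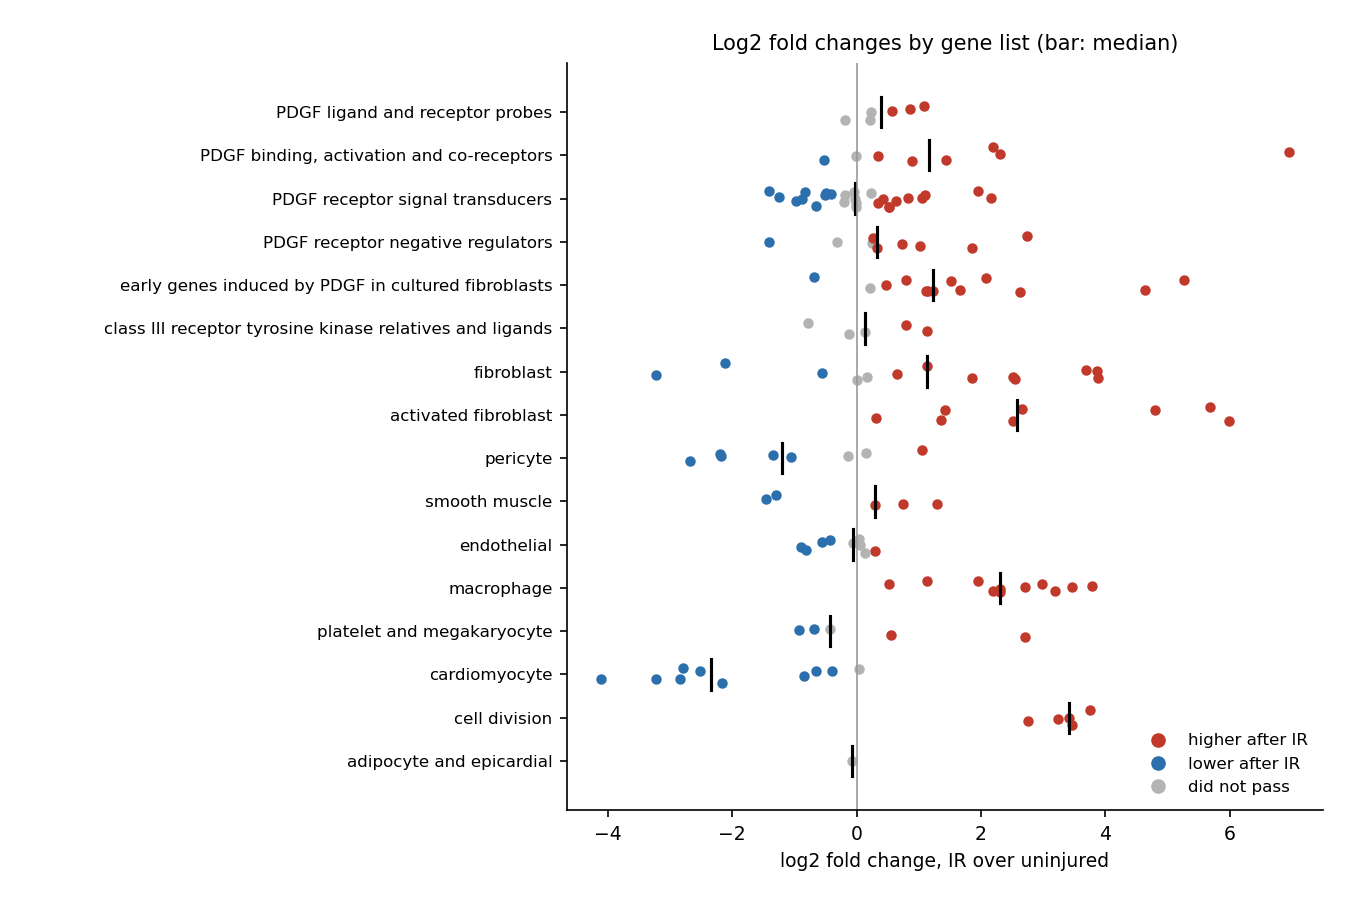
Log2 fold changes (IR over uninjured) of the kept PDGF probes and of the measured genes of each list, with red points called higher, blue points called lower and grey points that did not pass. Bars mark medians, among them 1.17 for the list of PDGF binding, activation and co-receptors, -0.02 for transducers, 1.14 for fibroblast and -1.20 for pericyte markers.

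Markers of the cells known to carry these receptors did not move as 1 group. Their counts stand beside 38.9% of all genes called higher and 34.1% called lower. Of 13 fibroblast markers, all measured, 8 rose and 3 fell, at a median of 1.14, and their summed background-corrected intensity was 21237 to 21607 on IR arrays, against 11576 to 12213 on uninjured arrays. The collagen genes Col1a2 (3.87 ± 0.09), Col1a1 (3.86 ± 0.12) and Col3a1 (3.68 ± 0.09) rose most, and Gsn (-3.22 ± 0.07, with its other kept probe called the opposite way), Pi16 (-2.12 ± 0.13) and Fbln1 (-0.56 ± 0.07) fell. Fbln1 stood at -0.08 (limma, adjusted p = 0.544) under all-probe median scaling. Tcf21, a transcription factor of resident fibroblasts, rose by 0.66, and Dcn (0.01) and Dpt (0.17) did not pass. Dcn was called lower under kept-probe median scaling (-0.44) and Dpt higher under all-probe median scaling (0.63). Of 8 activated fibroblast markers, all measured, 8 passed as higher. Their sums were 13150 to 13616 on IR arrays and 3001 to 3550 on uninjured arrays. The largest part of these sums was Acta2, at 7051 to 7637 on IR arrays and 2656 to 3087 on uninjured arrays. Without Acta2 the sum was 5926 to 6099 on IR arrays, against 345 to 464 on uninjured arrays. The rises were led by Lox (5.99) and Tnc (5.68), each detected on 1 of 3 uninjured arrays, and Cthrc1, at least 20.1-fold higher. Postn (0.32), the periostin gene, was detected on 0 of 3 uninjured arrays, and its IR level did not exceed the lowest detected value of those arrays, so no fold can be given for it. Without it the count is 7, as also under kept-probe median scaling, without background correction, with no filter, with an offset of 50, with undetected values raised and without any 1 of arrays 106, 107, 886, 109 and 110. Where detection on all 6 arrays was required, 4 were called higher, and Lox, Tnc, Cthrc1 and Postn had no value. Cthrc1 and Postn passed the detection filter through the IR arrays alone. Lox and Tnc needed the IR arrays to pass it, so all 4 could hardly be called lower.

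Pericyte markers were mixed but mostly lower. Of 8 measured of 9 listed, 1 rose and 5 fell, at a median of -1.20, and their sum was 893 to 927 on IR arrays, against 2019 to 2293 on uninjured arrays. For comparison, 38.9% of all genes were called higher and 34.1% lower. Abcc9 (-2.68 ± 0.08), a potassium channel subunit, Vtn (-2.19 ± 0.09) and Rgs5 (-2.18 ± 0.11) fell most, and Mcam (1.05 ± 0.14) rose. Cspg4, the NG2 proteoglycan of pericytes, stood at 0.15 and Notch3 at -0.14, and neither passed. Under all-probe median scaling Cspg4 (0.74; limma, adjusted p = 0.000187) and Notch3 (0.53; limma, adjusted p = 0.00601) rose too, and the count was 3 higher and 5 lower. Over all kept probes 57.4% rose and 16.6% fell in that setting. Of 7 smooth muscle markers 5 were measured, 3 rose, among them Tagln (1.30 ± 0.09), and 2 fell, Smtn (-1.46 ± 0.09) and Myh11 (-1.30 ± 0.15), with sums of 9550 to 10488 on IR arrays, against 6646 to 6939 on uninjured arrays. Most of that sum was Des, the desmin gene, which cardiomyocytes also express and which rose by 0.75. Without Des the sum was 982 to 1012 on IR arrays, against 1306 to 1544 on uninjured arrays. Cnn1 was detected on no array.

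Of 10 endothelial markers 9 were measured, 1 rose and 4 fell, with sums of 6389 to 6593 on IR arrays and 7101 to 7645 on uninjured arrays, and Kdr was detected on no array. Among all genes the shares were 38.9% higher and 34.1% lower. Flt1 (-0.89), Tie1 (-0.81) and Tek (-0.56) fell, and Cdh5 rose by 0.30, with its other kept probe called the opposite way. Tie1 (-0.17) and Tek (0.04) did not pass under all-probe median scaling, nor did Cdh5 (0.25) under kept-probe median scaling. The balance turned under all-probe median scaling, with 5 higher, among them Pecam1 (0.53), Emcn (0.49), Esam (0.53) and Egfl7 (0.38), and 1 lower, and Cldn5 (-0.43, lower in the first count) did not pass there (0.16). In that setting 57.4% of all kept probes rose and 16.6% fell. Cdh5 was also not called without IR array 107 or 886, or without uninjured array 109 or 904, which left 0 endothelial markers higher. Of 10 platelet and megakaryocyte markers 5 were measured, 2 rose and 2 fell, with sums of 3398 to 4291 on IR arrays and 670 to 787 on uninjured arrays. These counts lie near the shares of all genes and are not read as a result about platelets. Pf4, platelet factor 4, rose by 2.71 ± 0.10, while Treml1 fell by 0.68 ± 0.15 (detected on 1 of 3 IR arrays) and Gp9 was at least 1.74-fold lower and undetected on the IR arrays. The sum was nearly all Pf4, and without it came to 125 to 200 on IR arrays and 120 to 219 on uninjured arrays. Only 1 platelet marker was called higher without IR array 106 or 886, or without uninjured array 109 or 110. Where detection on all 6 arrays was required, 2 rose and 0 fell. Gp1bb, Itgb3 and Gp6 were detected on no array.

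Of 12 macrophage markers 11 were measured and 11 passed as higher, led by Ctss (3.79), Fcgr1 (3.46, detected on 1 of 3 uninjured arrays) and Lyz2 (3.19), with sums of 19430 to 20996 on IR arrays and 2543 to 3039 on uninjured arrays. The shares over all genes were 38.9% higher and 34.1% lower. Itgam, undetected on the uninjured arrays and at least 1.05-fold higher, stood at -0.05 (limma, adjusted p = 0.718) under kept-probe median scaling, where 10 were called. Itgam passed the detection filter through the IR arrays alone and Fcgr1 needed them to pass, so both could hardly be called lower. Where detection on all 6 arrays was required, Itgam and Fcgr1 had no value and 9 markers were called higher. Cell division genes rose in 5 of 5 measured cases of 8 listed, led by Prc1 (3.75), Cdk1 (3.46) and Birc5 (3.42), with sums of 2563 to 2652 on IR arrays and 126 to 205 on uninjured arrays. With detection on all 6 arrays required, 4 of these genes were called higher. Aurkb, detected on 1 of 3 uninjured arrays, had needed the IR arrays to pass the main filter. Cardiomyocyte markers fell in 9 of 10 measured cases of 11 listed, led by Ckm (-4.10), Tcap (-3.22) and Pln (-2.83), with sums of 50800 to 53753 on IR arrays and 105555 to 107852 on uninjured arrays. Each of these 10 was detected on all 6 arrays, and no probe was annotated to Tnnt2. Of 6 adipocyte and epicardial markers 1 was measured, the mesothelial gene Upk3b, and it did not pass (-0.08), with a level of 24 to 32 on IR arrays and 24 to 34 on uninjured arrays, and Adipoq was detected on no array. The part of these cell types in the PDGF results was not tested.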

How the data were processed

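Heart RNA of 6 mouse samples was measured on Illumina bead arrays. Per the submitters' processing notes, GenomeStudio 2010.3 summarised the bead signals. The deposited signal table gives, per the file headers, a mean bead intensity and a detection p-value per probe and array. As read from the values, these intensities carried neither background subtraction nor normalization, and detection p-values took multiples of 1 in 936, as deposited. The authors' processed intensities, quantile-normalized on a linear scale as judged from their values (Spearman's rho of 1, across probes, with a signal column of the same group in all 6 cases; medians per column 88.41, 88.41, 88.43, 88.37, 88.40 and 88.37), served as an alternative, and only they carry replicate numbers.

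Values were computed with limma 3.58.1 in R 4.3.3. neqc corrected the background from the detection p-values, added 16, normalized by quantiles and took log2, so fold changes refer to corrected intensity plus 16 and are understated for dim probes. Of 45281 probes, 18197 were detected on at least 3 of 6 arrays and were fitted together (lmFit and eBayes, no block, Benjamini-Hochberg over all of them, threshold 0.05). A probe detected on at most 1 array of a group needed the other group to be kept, so it could hardly be called lower in that other group. The number of arrays limits the precision. Platform symbols, which can be old, were updated by Entrez identifier: 34885 probes had 1 symbol, 18 several and 10378 none. A gene took its kept probe with the highest mean (10204 genes). A gene undetected on all arrays of a group is given as "at least N-fold", against the higher of its own value and the lowest detected value of each array. Summed levels subtract the offset.

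Members and the 15 gene lists were chosen with earlier results of these data known. Named genes were all members, from each list the 3 called genes that changed most and any called against most of its list, and the 3 nearest profiles of each called member. Other genes named were chosen after their values were seen. Alternatives changed the background correction, scaling, detection filter, offset, moderation, probe rule and the arrays used. The fit was checked on simulated data.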

Additional observations from a re-analysis of the deposited data

How the results depend on the processing

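The calls of Pdgfc, Pdgfra and Pdgfrb held in every alternative in which they were tested. Pdgfc had no value where detection on all 6 arrays was required. Leaving out each array in turn gave 1.01 to 1.24 for Pdgfc, 0.80 to 0.91 for Pdgfra, 0.49 to 0.62 for Pdgfrb, 0.15 to 0.28 for Pdgfa and -0.24 to -0.10 for Pdgfb, with 3 to 4 member probes called higher and 0 lower. With arrays 106 and 107 against 109 and 110 alone, Pdgfc was 1.11, Pdgfra 0.88 and Pdgfrb 0.54, each still called. Pdgfa passed at 0.28 (adjusted p = 0.0358) without uninjured array 109. It also passed at 0.21 (adjusted p = 0.0146) without background correction, 0.67 (adjusted p = 0.000157) under all-probe median scaling, 0.22 (adjusted p = 0.0240) with an offset of 50, 0.21 (adjusted p = 0.0154) in the authors' processed values, and at 0.23 with detection on all 6 arrays (adjusted p = 0.0389), trend and robust moderation (adjusted p = 0.0121), the mean of probes (adjusted p = 0.0411) or a fit over genes (adjusted p = 0.0438). Under kept-probe median scaling it was 0.01 (adjusted p = 0.949). Pdgfb turned to 0.41 (adjusted p = 0.0207) under all-probe median scaling, and passed at -0.16 (adjusted p = 0.0495) without background correction and at -0.25 (adjusted p = 0.0405) under kept-probe median scaling. That last scaling turned the second Pdgfc probe to -0.35 (adjusted p = 0.0358). With undetected values raised to the lowest detected value, an alternative chosen after seeing the data, that probe was at -8.04e-05, Pdgfc at 0.92 and Pdgfa at 0.23 (adjusted p = 0.0468). Member probes called higher numbered 5 under all-probe median scaling, and those called lower 1 without background correction and 2 under kept-probe median scaling. Over all kept probes, 57.4% rose under all-probe median scaling and 45.1% fell under kept-probe median scaling, against 36.5% and 33.1% in the main fit. Without background correction 33.2% of them fell, nearly the share in the main fit. Of 61 measured pathway genes 35 rose and 12 fell, beside 38.9% and 34.1% of all genes. All-probe median scaling gave 45 higher and 6 lower, and kept-probe median scaling 32 and 19. The cause of these differences was not tested. Replicate numbers of the labels do not pair the samples (correlations of same-numbered deviations -0.05, -0.0048 and -0.08, and 0 of 6 samples correlated best with their own number). With the replicate block, possible only in the authors' processed values, 6446 probes rose and 5983 fell, against 6585 and 6028 without it, and Pdgfa was 0.21 (adjusted p = 0.0103). Probes near background, among them both Pdgfd probes, limit what can be seen.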
